A study of Mus musculus with 24 samples.

Results

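The step across the early dark phase, from ZT15 to ZT19, was measured as the hearts labelled ZT19 minus the hearts labelled ZT15, with 4 hearts at each time and 8 of the 24 arrays of the series. Zeitgeber time (ZT) is given in hours after the lights come on, so that under 12 h of light and 12 h of darkness ZT19 lay 7 h and ZT15 lay 3 h after lights off. All mice were male, 8 weeks old and of the genotype Clock delta 19/delta 19, so every ZT19 heart and every ZT15 heart carried the mutation; other genotypes were not analysed here. The hearts were taken by their titles alone and not by any measured value, and the labels call them biological replicates of myocardium. Replicate 2 of ZT19 is included in the main comparison and left out in a second one, because its clock genes stood apart from those of the other hearts. Array values were available as 1 value per gene for 22180 genes, in logarithms read as log2 although the base was not stated, each centred on its own median over the 24 arrays. A value of 0.10 therefore says that a heart lay above that median, and nothing about how strongly a gene was expressed, so neither levels of different genes nor the presence of tissue markers could be assessed.

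In the heart, as in most tissues, CLOCK and ARNTL (BMAL1) form a pair of transcription factors that binds E-box sequences and activates the Per and Cry genes, whose proteins then inhibit the pair. The REV-ERB and ROR receptors act on Arntl in a second loop, and the factors DBP, TEF and HLF carry the rhythm to output genes through D-box sequences. The Clock delta 19 allele carries a point mutation at a splice site, so that its transcript skips an exon and gives a protein that joins the complex but activates poorly. In nocturnal mice the dark phase is the time of activity and feeding, when heart rate and the supply of nutrients to the heart are high.

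No gene passed the test of ZT19 against ZT15 in these hearts. At an adjusted p of 0.05 (limma, Benjamini-Hochberg over all genes), 0 of 22180 genes were called, which is a percentage of 0, and the smallest adjusted p was 0.102. At an unadjusted p under 0.05 there were 914 genes higher at ZT19, or 4.12%, and 708 genes lower, or 3.19%. All 4 ZT19 hearts lay above all 4 ZT15 hearts in 455 genes, 2.05% of those tested, and below them in 390 genes, 1.76%. Without ZT19 replicate 2 the test again called 0 genes (0%), with a smallest adjusted p of 0.0835. There were then 957 genes (4.31%) higher and 616 genes (2.78%) lower at ZT19 at an unadjusted p under 0.05.

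The data bound most differences of array values closely, which is not the same as showing that there were none. Signal over background is unknown and no gene was filtered for low signal, so the change in RNA may be bounded less closely. The median gene had a 95% interval of ± 0.12 around its difference, and 98.7% of genes had an interval lying within ± 0.5, a 1.41-fold change in either direction. Only 6 genes had a measured difference over 1.5-fold, and the median difference over all genes was 0.002. Steps between other neighbouring time points, tested in the same fit, called 0 genes (0%) for ZT07 minus ZT03, 43 (0.194%) for ZT11 minus ZT07, 0 (0%) for ZT15 minus ZT11, 0 (0%) for ZT23 minus ZT19 and 231 (1.04%) for ZT03 minus ZT23. Whether the number of calls differed between steps was not tested, and steps that meet at a time point share its hearts.

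The arrays were alike in their centre, with array medians between -0.0080 and 0.0023. The share of genes in which a heart was more extreme than all the other 23 ran from 6.16% to 16.2% over the series, and was 8.31% in ZT19 replicate 2. The highest share belonged to a ZT11 heart, which entered the comparison only through the estimate of the spread shared by all time points. Cell type markers showed no passing gene in any of 14 lists. Their mean value per heart overlapped between ZT19 and ZT15 in every list but that of skeletal muscle, given with Casq1. The position of the array's Clock probes relative to the skipped exon is unknown here, so Clock values do not test the genotype.

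Genes with the smallest p-values are described next as measurements that did not pass. Among those higher at ZT19, Glcci1, a gene first found as a transcript induced by glucocorticoids, had the smallest p. It stood at 0.067, 0.11, 0.078 and 0.17 in the ZT19 hearts, against -0.11, -0.069, -0.11 and -0.042 in the ZT15 hearts. Every ZT19 heart lay above every ZT15 heart, and the difference was 0.19 (95% interval 0.12 to 0.26, adjusted p = 0.102 by limma). Tpgs2, a subunit of the tubulin polyglutamylase complex, stood at 0.22, 0.11, 0.27 and 0.27 at ZT19, against -0.038, -0.066, -0.064 and -0.17 at ZT15. The groups did not overlap, ZT19 replicate 2 was the lowest of its group, and the difference was 0.30 (0.20 to 0.41, adjusted p = 0.102 by limma). Without that heart the difference of Tpgs2 was 0.34 (0.23 to 0.45, adjusted p = 0.0835 by limma). Cnksr3, a scaffold protein of kinase signalling and of sodium channel control in the kidney, stood at -0.0084, 0.26, 0.093 and 0.18 at ZT19, against -0.36, -0.18, -0.18 and -0.32 at ZT15. Its groups were also apart, by 0.39 (0.24 to 0.54, adjusted p = 0.162 by limma).

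The other genes of this set had an adjusted p of 0.261. Adh5, the enzyme that reduces S-nitrosoglutathione and oxidises formaldehyde, stood at 0.28, 0.24, 0.15 and 0.16 at ZT19, against -0.0065, -0.011, -0.18 and -0.086 at ZT15, a difference of 0.28. Ivns1abp, a kelch protein that binds actin, differed by 0.28 and Mblac2, of the metallo-beta-lactamase fold family, by 0.33. Lgals8, the galectin that marks damaged endosomes, differed by 0.28, with 0.29, 0.016, 0.11 and 0.045 at ZT19 against -0.031, -0.20, -0.19 and -0.23 at ZT15. In each of these genes all ZT19 hearts lay above all ZT15 hearts, as choosing them by the smallest p favours. The share over all genes was 2.05%, but it is no measure for genes chosen in this way. Ap3s2, a subunit of the AP-3 adaptor of vesicle sorting, differed by 0.17 as the mean of 2 features whose own differences were 0.07 and 0.28.

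Among genes lower at ZT19, Hes5, a transcriptional repressor induced by Notch, had the smallest p. It stood at -0.027, -0.081, 0.030 and 0.041 at ZT19, against 0.20, 0.28, 0.22 and 0.16 at ZT15. The groups did not overlap and the difference was -0.23 (-0.31 to -0.14, adjusted p = 0.111 by limma), but its 2 features disagreed in size, at -0.06 and -0.39. Casq1, the calsequestrin that stores calcium in the reticulum of fast skeletal muscle, had the largest difference of means in the set. Its values were -0.044, -0.55, -0.64 and -0.20 at ZT19, against 0.37, 0.56, 0.081 and 0.070 at ZT15, a difference of -0.63 (-0.90 to -0.35, adjusted p = 0.261 by limma), or 1.54-fold. The mean of 8 skeletal muscle markers per heart ran from -0.091 to 0.016 at ZT19 and from 0.022 to 0.11 at ZT15, so that the groups did not overlap there either. None of these markers passed, and 0 of 8 had an unadjusted p under 0.05, where 4.12% of all genes were higher and 3.19% lower. Without ZT19 replicate 2, 1 of 8 had such a p, lower at ZT19, against 2.78% of all genes. Their median difference was -0.034 against 0.002 over all genes, and their part in the Casq1 difference was not tested. In bulk tissue such as this, fewer cells of a type and less RNA per cell cannot be told apart.

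Extracellular genes were among the rest of the set. Olfml2b, an olfactomedin-like protein of the matrix, stood at -0.42, -0.24, -0.14 and -0.0062 at ZT19, against 0.33, -0.023, 0.057 and 0.35 at ZT15. Its groups touched, since the highest ZT19 heart lay above the lowest ZT15 heart, and the difference was -0.38 (-0.55 to -0.21, adjusted p = 0.261 by limma). Col6a1, a chain of collagen VI, stood at -0.12, -0.088, -0.12 and -0.085 at ZT19, against 0.28, 0.14, 0.22 and -0.024 at ZT15. All ZT19 hearts were lower, by 0.26 on average, with its 2 features at -0.11 and -0.41. C1ql2, a secreted protein of synapses, differed by -0.17, Ngb, the globin of nerve cells, by -0.33, and Snord19, a small nucleolar RNA, by -0.14, with groups that did not overlap in any of the 3. Olfr914, an olfactory receptor gene, differed by -0.40 (-0.59 to -0.21, adjusted p = 0.261 by limma), with ZT15 replicate 3 at -0.15 and the other ZT15 hearts at 0.28, 0.47 and 0.13. All 4 of its ZT19 values lay between -0.30 and -0.11. Without ZT15 replicate 3 the difference of Olfr914 was -0.51, and it was then the 1 gene to pass, at an adjusted p of 0.0443 by limma.

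**Figure D1:**
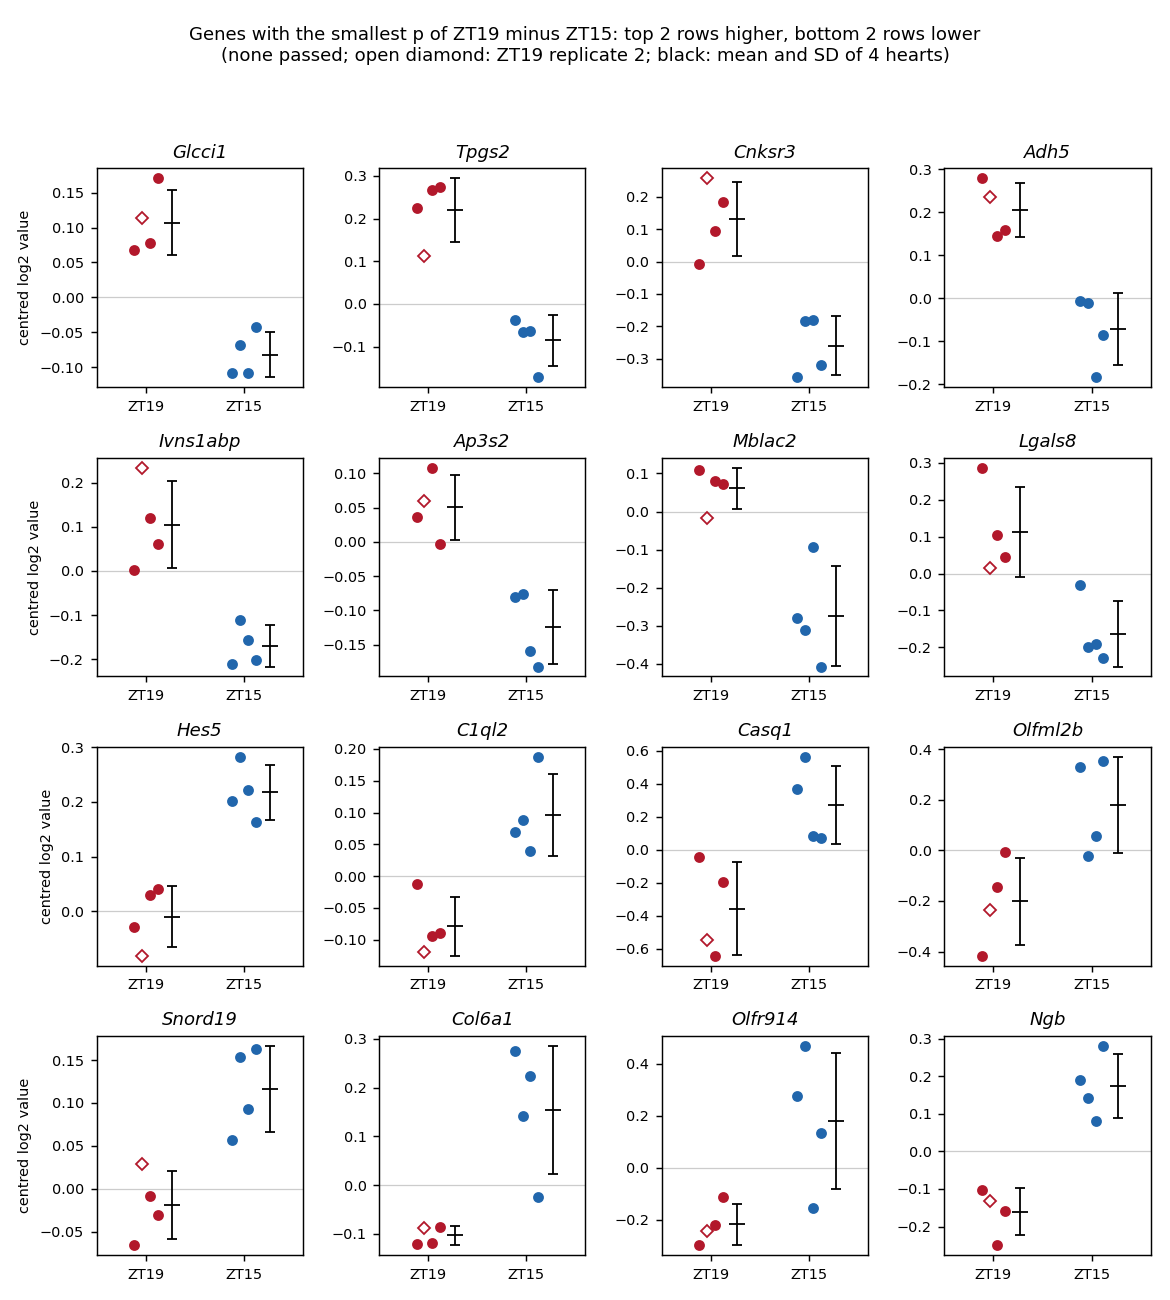
Centred log2 value (vertical axis) of each ZT19 and each ZT15 heart for the 8 genes of the smallest p in each direction, with mean and SD of 4 hearts. The groups were apart in all but Olfml2b and Olfr914, as choosing genes by the smallest p favours. No gene passed, the smallest adjusted p being 0.102 by limma.

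Over the whole day, 12 of the 16 genes with the smallest p had the highest and the lowest of their 6 means at ZT19 and ZT15, as choosing them by this difference favours. The exceptions were Adh5, lowest at ZT11, Mblac2, highest at ZT23, Col6a1, highest at ZT11, and Hes5. Glcci1 averaged 0.11 ± 0.047 at ZT19 and -0.082 ± 0.033 at ZT15 (SD, n = 4), its highest and its lowest mean. Tpgs2 and Cnksr3 likewise had their highest mean at ZT19 and their lowest at ZT15. For Casq1 and Olfml2b the order was the reverse, with the lowest mean at ZT19 and the highest at ZT15. The mean of Hes5 was -0.0092 ± 0.056 at ZT19 and 0.22 ± 0.050 at ZT15 (SD, n = 4), and the means at the other 4 times lay between -0.055 and 0.0035, so ZT15 alone stood apart.

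**Figure D2:**
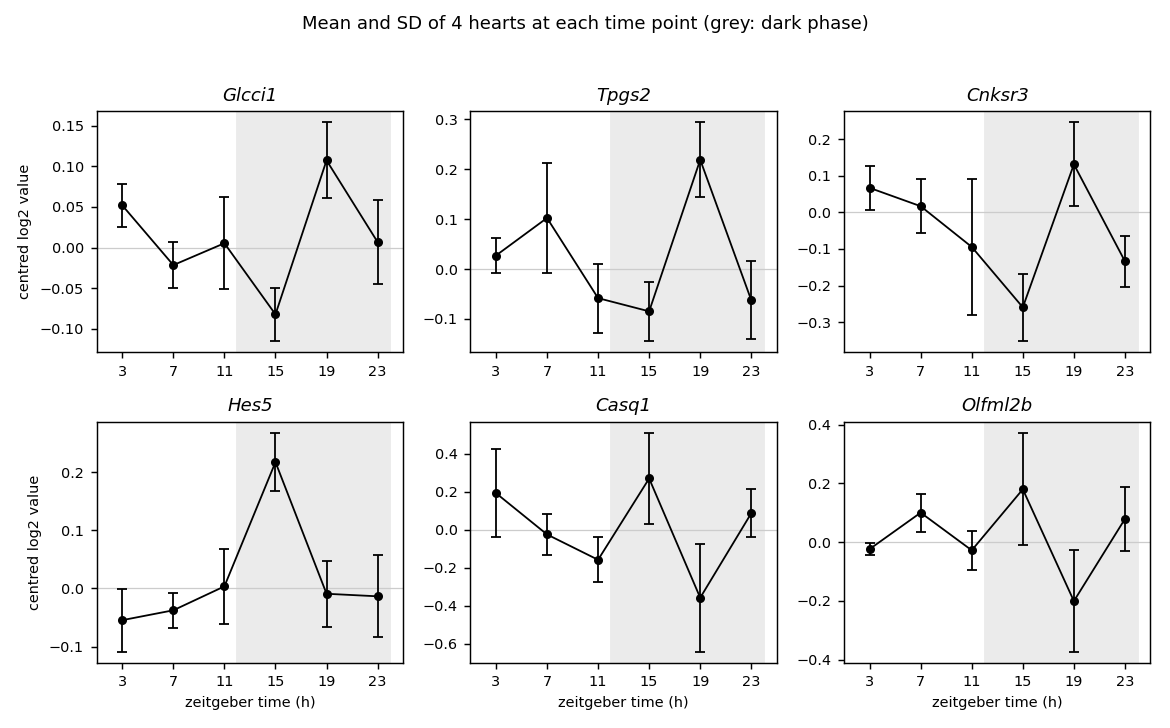
Mean centred log2 value with SD of 4 hearts (vertical axis) against zeitgeber time in hours (horizontal axis, dark phase in grey) for 6 of the genes with the smallest p. ZT19 holds the highest mean of Glcci1, Tpgs2 and Cnksr3 and the lowest of Casq1 and Olfml2b, while Hes5 is high at ZT15 only.

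The genes with the widest measured differences, which were chosen after their values were seen, varied widely between hearts. Hamp, which encodes the iron hormone hepcidin, stood at -0.42, -0.72, -0.87 and 0.25 at ZT19, against 0.98, -0.18, 0.32 and 1.11 at ZT15. The groups overlapped, and the difference of -0.998 (-1.89 to -0.10, adjusted p = 0.628 by limma) was a 2.00-fold change with an interval of nearly that width to each side. Genes of atrial muscle lay on the same side in part. Myl4 and Myl7, light chains of atrial myosin, differed by -0.35 and -0.52, and Sln, the atrial inhibitor of the calcium pump, by -0.58, while Nppa, which encodes atrial natriuretic peptide, differed by 0.35. Of 8 atrial markers 1 (Myl4) had an unadjusted p under 0.05, lower at ZT19, against 3.19% of all genes. Their mean per heart was -0.086, -0.23, -0.14 and 0.046 at ZT19, against 0.20, -0.15, -0.097 and 0.14 at ZT15. The part of atrial tissue in the differences of Hamp, Sln, Myl4, Myl7 and Nppa was not tested.

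Acot2, a thioesterase of the mitochondrial matrix that releases free fatty acids, stood at -0.85, 0.0041, 0.21 and 1.01 at ZT19, against 0.13, -1.42, -1.02 and -0.70 at ZT15. In both groups replicate 1 went against the other 3, and the difference of 0.84 had an interval of 0.037 to 1.65 (adjusted p = 0.66 by limma). Ptgds, a prostaglandin D synthase, stood at 0.14, 1.59, 0.083 and 0.32 at ZT19, against -0.56, 0.047, -0.0078 and -0.33 at ZT15. Replicate 2 alone carried much of its difference of 0.75, which was 0.39 without that heart. Nppb, which encodes B-type natriuretic peptide, stood at 0.26, -0.057, 0.75 and 1.11 at ZT19, against 0.032, 0.26, -0.48 and -0.32 at ZT15. Here ZT19 replicate 2 was the low heart, and the difference was 0.64 (0.14 to 1.14, adjusted p = 0.566 by limma) with it and 0.83 (0.33 to 1.34, adjusted p = 0.433 by limma) without it. Fnip2, a partner of folliculin in nutrient signalling, had groups that did not overlap and differed by 0.55 (0.28 to 0.81, adjusted p = 0.261 by limma). Snord71, a small nucleolar RNA, split within ZT19, with 1.17 and 0.96 in replicates 1 and 2 and -1.54 and -1.09 in replicates 3 and 4. The ZT15 hearts lay between -1.40 and -0.43, and its interval of -0.15 to 1.78 held 0, with a difference of 0.81 that was 0.45 without ZT19 replicate 2. Mir467c, a microRNA gene, differed by -0.55 with all hearts and by -0.41 without ZT19 replicate 2.

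Of the 21 core clock genes with a value, 0 passed and 1, higher at ZT19, had an unadjusted p under 0.05. By that measure 4.12% of all genes were higher and 3.19% lower. The median difference of the 21 was 0.040, against 0.002 over all genes. Without ZT19 replicate 2, 0 of 21 had such a p and the median was 0.0088, against 0.0025 over all genes. ZT19 replicate 2 was more extreme than all of the other 23 hearts in 12 of these 21 genes, whereas any other heart of the series did so in 0 to 4. Over all genes its share was 8.31%. The count is a description and no separate support, since this heart was singled out for its clock genes. Leaving it out turned the sign of the difference in 6 of the 21 genes, and no gene passed with or without it.

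Both activators were low in that heart. Arntl, which encodes BMAL1, stood at -0.33, -0.83, -0.029 and 0.24 at ZT19, against -0.13, 0.082, -0.027 and -0.25 at ZT15. Clock, the mutated gene itself, stood at 0.014, -0.60, -0.011 and -0.060 at ZT19, against -0.12, -0.029, 0.0041 and 0.029 at ZT15. Apart from replicate 2, the Clock values of ZT19 hearts lay inside the range of the ZT15 hearts. The difference of Clock was -0.14 (-0.33 to 0.057) with replicate 2 and 0.0088 (-0.11 to 0.12) without it. That of Arntl was -0.16 (-0.47 to 0.15) with it and 0.039 (-0.20 to 0.28) without it. Both signs thus turned on 1 heart. Npas2, the partner that can replace CLOCK, had no such heart and stood between -0.31 and -0.19 at ZT19, inside the range of -0.38 to -0.0061 at ZT15.

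Period and cryptochrome genes, the inhibitors of the pair, were high in the same heart where they stood apart. Per3 stood at -0.010, 0.93, 0.23 and 0.010 at ZT19, against -0.062, 0.034, 0.025 and 0.13 at ZT15. Its difference was the widest of the core clock genes, at 0.26 (-0.0068 to 0.52, adjusted p = 0.69 by limma), and 0.044 (-0.079 to 0.17) without replicate 2. Cry2 stood at 0.010, 0.45, -0.031 and -0.14 at ZT19, against -0.13, 0.011, 0.039 and 0.10 at ZT15, and its difference of 0.067 became -0.060 without that heart. Cry1 differed by 0.17 (-0.070 to 0.41), or by 0.11 without it, with 3 of 4 ZT19 hearts above 0.20 and 1 of 4 ZT15 hearts there. Per1 was scattered within both groups, from -0.20 to 0.23 at ZT19 and from -0.49 to 0.41 at ZT15. Per2 had no value here.

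Receptors and output factors did not lie on a common side in ZT19 replicate 2. Nr1d1, which encodes REV-ERB alpha, stood at -0.22, -0.62, 0.20 and 0.0016 at ZT19, against 0.21, -0.0016, -0.16 and 0.11 at ZT15. Its paralog Nr1d2 was on the other side in replicate 2, with 0.018, 0.67, -0.046 and -0.094 at ZT19, against 0.015, 0.14, -0.17 and -0.055 at ZT15. The differences were -0.20 for Nr1d1 and 0.15 for Nr1d2 with all hearts, and -0.046 and -0.024 without replicate 2. Dbp, the output factor that binds D-boxes, stood at 0.028, 0.62, -0.086 and -0.0002 at ZT19, against 0.29, -0.030, -0.013 and 0.021 at ZT15. A high heart stood in each group, and the difference was 0.074 with all hearts and -0.086 without ZT19 replicate 2. Bhlhe41, the repressor DEC2, was the core clock gene with the smallest p, at -0.0077, 0.30, 0.15 and 0.099 at ZT19 against -0.16, -0.11, -0.054 and 0.18 at ZT15. The groups overlapped through 1 ZT15 heart, and the difference was 0.17 (0.033 to 0.31, adjusted p = 0.58 by limma), or 0.12 (-0.021 to 0.26) without ZT19 replicate 2. The remaining core clock genes, among them Rora, Rorb, Tef, Hlf, Nfil3, Bhlhe40, Ciart and Timeless, had differences between -0.17 and 0.10. Of these, Rora and Hlf lay above the range of the other 23 hearts in ZT19 replicate 2 and Rorb below it.

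**Figure D3:**
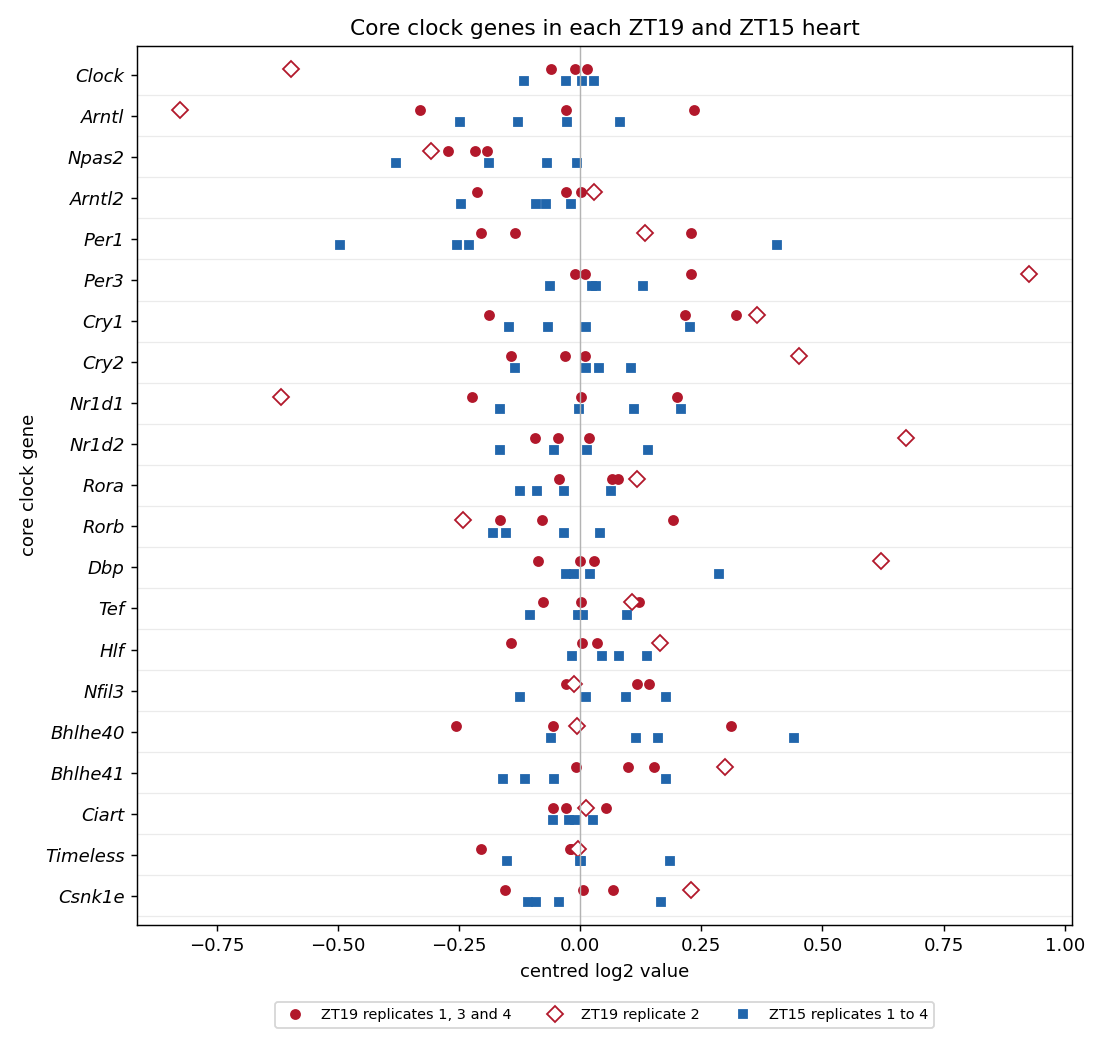
Centred log2 values (horizontal axis) of 21 core clock genes (rows) in the ZT19 hearts (circles, replicate 2 as an open diamond) and the ZT15 hearts (squares). ZT19 replicate 2 lies far left in Clock, Arntl and Nr1d1 and far right in Per3, Nr1d2, Dbp and Cry2, while the other ZT19 hearts overlap the ZT15 hearts.

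**Figure D4:**
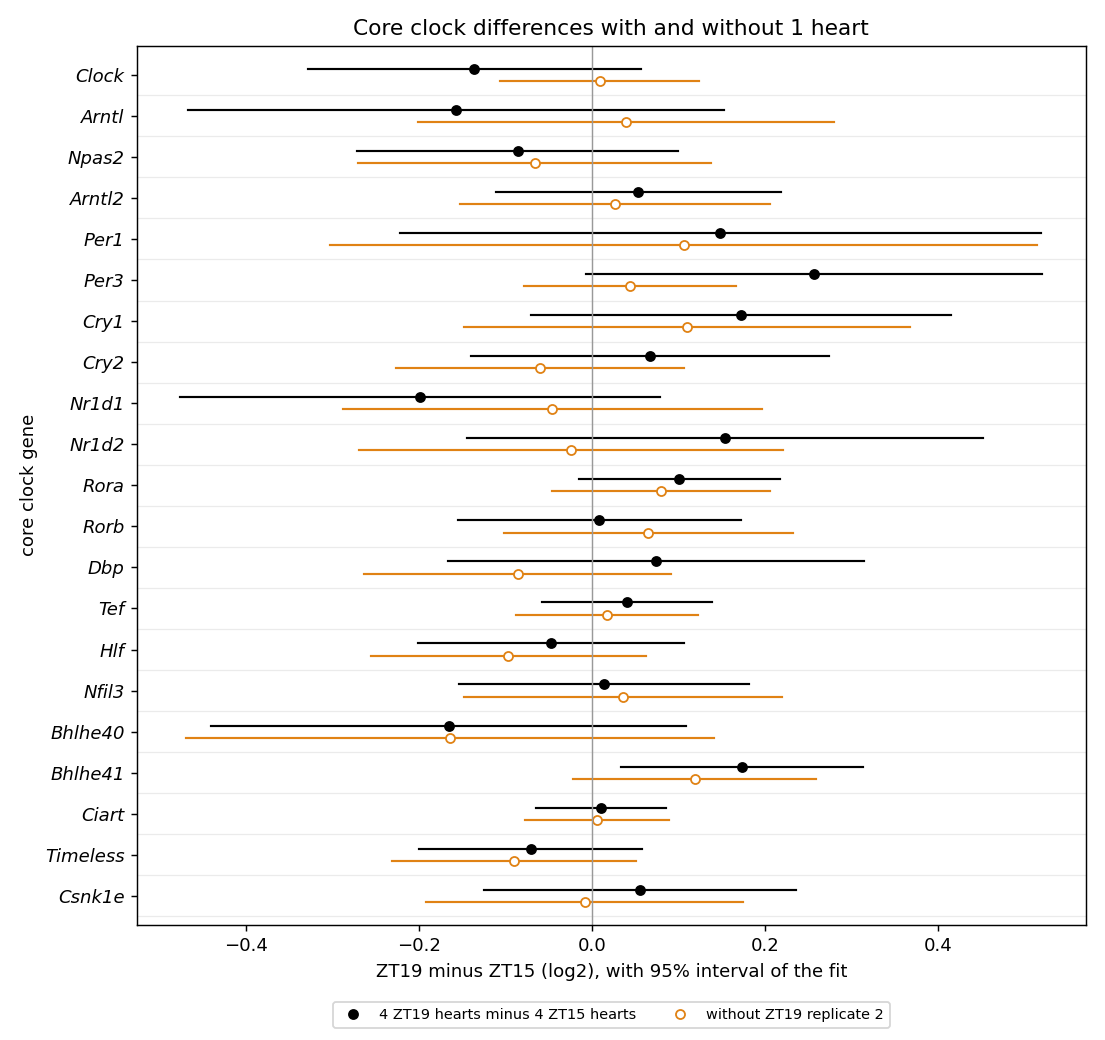
Difference of ZT19 minus ZT15 on the log2 scale with its 95% interval (horizontal axis) for 21 core clock genes (rows), with all 4 ZT19 hearts (black) and without ZT19 replicate 2 (open orange). Every interval but that of Bhlhe41 holds 0 with all hearts, and every interval holds 0 without that heart.

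The promoters of these genes are shown because the genes lying apart in ZT19 replicate 2 include known targets of E-box and D-box factors. RefSeq promoter sequences (GRCm38.p6) were found for 20 of the 21 genes, 29 promoters in all, and the 250 bases before each start were searched on both strands. The E-box searched was CACGTG and the D-box TTATGTAA or its reverse complement. In this window the E-box was present in 6 of 29 core clock promoters (20.7%), from 5 genes, and in 6.02% of all 32851 promoters. The D-box was present in 2 of 29 (6.9%) and in 0.819% of all. A match describes letters only. Of the 7 genes with a match, Per3, Cry1 and Bhlhe41 lay above the range of the other 23 hearts in ZT19 replicate 2, and Ciart, Per1, Tef and Timeless lay inside it. Of the 13 genes with a promoter and no match, 9 lay outside that range, among them Clock, Arntl, Nr1d1, Nr1d2, Dbp and Cry2. A gene with no match may still hold a site outside the 250 bases or in other letters. These counts rest on a heart singled out for its clock genes, and control by E-box or D-box factors was not tested. In the sequences below, read 5′ to 3′ on the strand of the gene, capitals mark the D-box in Per3 (chr4:151044804-151044882, minus strand) and the E-box in Cry1 (chr10:85185097-85185126, minus strand), Bhlhe41 (chr6:145865556-145865585, minus strand) and Ciart (chr3:95882255-95882356, minus strand).
Per3: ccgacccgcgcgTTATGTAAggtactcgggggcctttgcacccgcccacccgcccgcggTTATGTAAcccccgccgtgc
Cry1: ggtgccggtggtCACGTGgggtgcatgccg
Bhlhe41: tggtacgttccgCACGTGagctgggtgctg
Ciart: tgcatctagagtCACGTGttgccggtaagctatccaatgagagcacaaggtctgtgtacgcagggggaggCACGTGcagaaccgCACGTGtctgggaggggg

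Clock output genes were higher at ZT19 in several members without any passing. Members of the gene lists here and below were chosen with earlier results of these data known. Their counts are therefore not independent of these data, also where a share over all genes stands beside them. Of 15 measured, 4 had an unadjusted p under 0.05 and a higher value, against 4.12% of all genes. Without ZT19 replicate 2, 1 did so, against 4.31% of all genes. Fmo2, a flavin monooxygenase, stood at -0.10, 1.04, 0.070 and 0.19 at ZT19, against -0.16, -0.099, 0.038 and -0.054 at ZT15. Replicate 2 was far above the rest, and the difference was 0.37 with that heart and 0.12 without it. Wee1, the kinase that delays entry into mitosis, stood at -0.040, 0.87, 0.50 and 0.42 at ZT19, against -0.16, 0.21, -0.019 and 0.38 at ZT15. Its difference was 0.33 (0.062 to 0.60) with replicate 2 and 0.19 (-0.052 to 0.43) without it. Lonrf3, a RING finger protein, stood at 0.076, 0.15, 0.42 and 0.018 at ZT19, against -0.0010, -0.023, -0.075 and -0.062 at ZT15. The groups did not overlap, and the difference was 0.21 with and without replicate 2 but 0.12 without ZT19 replicate 3, its highest heart. Klf15, a regulator of cardiac nutrient use that is induced by glucocorticoids, differed by 0.14 with and 0.088 without it. Over the list the median difference was 0.061 with all hearts and 0.019 without replicate 2.

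Genes of fatty acid oxidation and PPAR alpha targets, the main fuel pathway of the heart, had 5 of 30 members higher at ZT19 at an unadjusted p under 0.05, 0 lower and 0 passing, with a median of 0.052. Over all genes 4.12% were higher and 3.19% lower by that measure. Without ZT19 replicate 2 there were 2 such members, against 4.31% of all genes, and the median was 0.033. Ppargc1a, the coactivator of mitochondrial genes, stood at 0.16, 0.15, 0.14 and -0.081 at ZT19, against -0.14, -0.19, -0.26 and -0.15 at ZT15. All ZT19 hearts were above, and the difference was 0.28 (0.087 to 0.47, adjusted p = 0.484 by limma). Cpt1a, the enzyme that commits fatty acids to mitochondrial import in liver and, at lower level, in heart, also had groups apart, with 0.10, 0.079, -0.073 and 0.011 at ZT19 against -0.24, -0.39, -0.14 and -0.21 at ZT15. The rest were Acot2, Ppargc1b, the relative of Ppargc1a, at 0.15 and, named after its value was seen, Decr1, a reductase of unsaturated fatty acids, at 0.11. In oxidative phosphorylation 1 of 48 members was higher (Sdhd, a subunit of complex II, 0.18) and 1 lower (Ndufa5, a subunit of complex I, -0.20), with a median of -0.034. There were 3 higher and 2 lower without ZT19 replicate 2, against 4.31% and 2.78% of all genes, and the median was -0.017. In the citric acid cycle 1 of 18, Suclg1 of succinyl-CoA ligase at -0.20, was lower at an unadjusted p under 0.05 and 0 were higher, whereas 3 were higher and 1 lower without ZT19 replicate 2.

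Stored lipid and sugar gave members on both sides. Among 22 genes of triglycerides and lipid droplets, Abhd5, the activator of triglyceride lipase, had 0.11, 0.031, 0.093 and 0.27 at ZT19, against -0.13, -0.26, -0.095 and 0.094 at ZT15, a difference of 0.22 (0.10 to 0.34, adjusted p = 0.34 by limma). Gpam, of glycerolipid synthesis, differed by 0.23 with ZT19 replicate 2 and by 0.13 without it. Lpl, the lipase that frees fatty acids from blood lipoproteins, differed by -0.15 with groups that did not overlap, as the mean of features at -0.04 and -0.27. Sterol and fatty acid synthesis had 3 of 22 members higher at an unadjusted p under 0.05, against 4.12% of all genes, and 0 lower. Without replicate 2 it had 4 higher, against 4.31% of all genes. Its member Insig1, which holds back the sterol sensor in the reticulum, had 3 ZT19 hearts at 0.20, 0.13 and 0.11 and 1 at -0.29, against -0.44 to -0.10 at ZT15, a difference of 0.32. Over its 22 members the mean per heart was -0.031, 0.047, 0.0035 and 0.042 at ZT19, against -0.056, -0.091, -0.064 and -0.063 at ZT15. These groups did not overlap, nor did those of ribosome biogenesis and the cell cycle among the 30 pathway lists. For the cell cycle the gap was slight, the lowest ZT19 mean being -0.0151 and the highest ZT15 mean -0.0163. Of all single genes, 2.05% had every ZT19 heart above every ZT15 heart and 1.76% every one below. No such share is known for means of lists. Acacb, which makes the malonyl-CoA that restrains fatty acid import, differed by 0.28 and Scd1, the desaturase, by 0.27. In the list of glucose and glycogen 3 of 22 were higher and 1 lower, and 2 higher and 0 lower without ZT19 replicate 2. Of all genes 3.19% were lower with all hearts and 2.78% without that heart. Ppp1r3c, which brings phosphatase to glycogen, had the widest of these differences, with 0.078, 0.12, 0.44 and 0.34 at ZT19 against -0.095, 0.056, -0.27 and -0.26 at ZT15, a difference of 0.38. Pfkfb2, the cardiac regulator of glycolysis, was at 0.44 in ZT19 replicate 2 and between -0.15 and 0.080 in the other ZT19 hearts, and its difference was 0.23 with that heart and 0.12 without it. Gapdh differed by 0.14 and Pgam2, the muscle phosphoglycerate mutase, by -0.19.

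Insulin, FoxO and growth signalling had 4 of 31 members higher and 1 lower at an unadjusted p under 0.05, where 4.12% of all genes were higher and 3.19% lower. There were 3 higher and 0 lower without ZT19 replicate 2, where 4.31% of all genes were higher and 2.78% lower. Sesn1, a FoxO target that restrains mTORC1, stood at -0.11, 0.35, 0.21 and 0.0070 at ZT19, against -0.34, -0.13, -0.22 and -0.24 at ZT15. Its groups were apart by 0.35 (0.15 to 0.54, adjusted p = 0.368 by limma). Fbxo32 and Trim63, the ubiquitin ligases atrogin-1 and MuRF1 of muscle breakdown, differed by 0.27 and 0.24. Trim63 was at 0.32 in ZT19 replicate 2 and between -0.18 and -0.094 in the other ZT19 hearts, and its difference without that heart was 0.13. Igf1r, the receptor of insulin-like growth factor, differed by 0.23. The lower member, named after its value was seen, was the growth factor Igf1 itself at -0.14. In autophagy 1 of 28 was higher and 2 lower, and 1 was higher and 1 lower without ZT19 replicate 2. Atg12, a ubiquitin-like protein of membrane growth, differed by 0.34 (0.15 to 0.54, adjusted p = 0.368 by limma), while its conjugation partner Atg5 differed by -0.14, with groups that did not overlap. The other lower member was Lamp1, of the lysosomal membrane, at -0.08.

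Collagen and matrix genes had the lowest median of the 30 pathway lists. The median was -0.063, and 5 of 38 members were lower and 1 higher at an unadjusted p under 0.05, where 3.19% of all genes were lower. Without ZT19 replicate 2 the median was -0.035 and 3 were lower, against 2.78% of all genes, with 0 passing either way. Col1a1, the main chain of collagen I, stood at -0.41, -0.67, -0.24 and -0.15 at ZT19, against -0.21, 0.024, 0.040 and -0.10 at ZT15. Replicate 2 was its lowest heart, and the difference was -0.30 (-0.56 to -0.051) with it and -0.20 (-0.45 to 0.049) without it. Col6a2 differed by -0.24 with replicate 2 and by -0.22 without it. Tgfb1, the growth factor that induces matrix genes, stood at -0.26, -0.12, -0.27 and -0.11 at ZT19, against -0.015, 0.051, 0.090 and -0.0035 at ZT15. Its groups did not overlap and the difference was -0.22 (-0.35 to -0.093, adjusted p = 0.386 by limma). Named after their values were seen, the remaining members counted were Eln, the elastin gene, at -0.22 and Timp4, an inhibitor of matrix proteases and the 1 higher member, at 0.34. Fibroblast markers did not lie on that side, with a median difference of 0.062 over 8 genes. With all hearts 1 was higher and 1 lower at an unadjusted p under 0.05, against 4.12% and 3.19% of all genes. Without ZT19 replicate 2, 3 were higher and 0 lower, against 4.31% and 2.78% of all genes. Prrx1, a transcription factor of fibroblasts, differed by 0.17. The mean of these markers per heart was 0.070, -0.15, -0.092 and 0.044 at ZT19, against -0.057, -0.0053, -0.10 and -0.075 at ZT15, and their part in the collagen values was not tested.

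In the list of natriuretic, angiotensin and adrenergic genes 4 of 21 were higher at ZT19 at an unadjusted p under 0.05, against 4.12% of all genes, and 0 lower. When ZT19 replicate 2 was left out, 5 were higher, against 4.31% of all genes. In 3 of the 21 all ZT19 hearts lay above all ZT15 hearts, as in 2.05% of all genes. Npr3, the receptor that clears natriuretic peptides, stood at 0.15, 0.038, 0.0077 and -0.0007 at ZT19, against -0.23, -0.094, -0.15 and -0.50 at ZT15. The groups did not overlap, and the difference was 0.30 both with and without replicate 2 (adjusted p = 0.429 by limma with all hearts). Edn1, the vasoconstrictor endothelin, stood at 0.085, 0.24, 0.29 and 0.34 at ZT19, against -0.0055, -0.15, -0.21 and 0.0055 at ZT15. All ZT19 hearts were above, by 0.33 on average (0.048 to 0.61, adjusted p = 0.603 by limma). Its receptor Ednrb differed by 0.21 with overlapping groups. These members and Nppb kept their sign without replicate 2, as choosing them by a small p with all hearts favours, and none passed.

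Contractile genes were divided. Of 31 sarcomere genes 3 were higher and 2 lower at an unadjusted p under 0.05, with a median of 0.013. Over all genes 4.12% were higher and 3.19% lower by that measure. Without ZT19 replicate 2 the list had 2 higher and 1 lower, against 4.31% and 2.78% of all genes. Lmod2, which controls the length of thin filaments, stood at 0.27, 0.11, 0.12 and 0.074 at ZT19, against -0.15, 0.065, -0.11 and -0.091 at ZT15, a difference of 0.21 (0.068 to 0.36, adjusted p = 0.472 by limma). Myh7, the slow myosin heavy chain, was at 1.09 in ZT19 replicate 2 and between 0.0035 and 0.36 in the other ZT19 hearts, against -0.26 to 0.088 at ZT15. Its difference was 0.49 with that heart and 0.26 without it. Xirp1, a protein of intercalated discs that responds to stretch, differed by -0.23, with a low ZT19 heart at -0.30 and the other 3 between 0.0012 and 0.041, against 0.099 to 0.29 at ZT15. Myl4, described above, was the other lower member, and Ankrd1, a stretch-responsive gene named after its value was seen, the other higher one at 0.43. In calcium handling and sodium current 1 of 22 was higher (Camk2d, the calmodulin kinase of the heart, 0.14) and 1 lower (Atp1b1, a subunit of the sodium pump, -0.10). Potassium channels had 0 of 18 members with an unadjusted p under 0.05.

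Proteasome genes had 4 of 34 members higher at an unadjusted p under 0.05, against 4.12% of all genes, and 0 lower, against 3.19%. These were Psmd5, Psmd1, Psme4 and Psma5 at 0.31, 0.16, 0.14 and 0.12, while the median of the list was -0.001. In 0 of the 34 did all ZT19 hearts lie above all ZT15 hearts and in 2 they all lay below, where 2.05% and 1.76% of all genes did so. The counts were 4 higher and 1 lower without ZT19 replicate 2, where 4.31% of all genes were higher and 2.78% lower. Stress of the reticulum gave 2 of 25 higher, and 1 higher and 1 lower without ZT19 replicate 2. Ddit3, which encodes the factor CHOP, stood at 0.35, 0.54, 0.23 and -0.082 at ZT19, against -0.10, -0.077, -0.18 and -0.038 at ZT15, a difference of 0.36 (0.13 to 0.58, adjusted p = 0.438 by limma). Herpud1, a gene of the same response, was at 0.79 in ZT19 replicate 2, and its difference was 0.26 with that heart and 0.086 without it. In heat shock Dnajb4 was higher by 0.12 and Hspa8, the constitutive HSP70, lower by 0.25 over 4 features of -0.36 to -0.09. Cat, the catalase, was the 1 of 30 antioxidant genes with such a p, at 0.41. Immediate early genes had 0 of 25 such members, hypoxia and angiogenesis 0 of 23 and splicing factors 0 of 23. When ZT19 replicate 2 was left out, immediate early genes had 1 higher and 2 lower, splicing factors 1 higher, and hypoxia and angiogenesis again 0. Ribosome biogenesis and cytosolic ribosomal proteins had 2 each, Rrp12 (0.18) and Polr1a (0.19), and Rpl8 (0.21) and Rpl30 (0.12). Translation factors had 2 of 21 (Eif4b and Eif4ebp1, both 0.23), mitochondrial ribosomal proteins 1 of 33 (Mrps25, -0.19), interferon response 1 of 25 (Usp18, 0.21) and the cell cycle 2 of 27 (Wee1 and Cdkn1b, 0.23 in Cdkn1b). Without ZT19 replicate 2, ribosome biogenesis and translation factors had 1 higher each. Mitochondrial ribosomal proteins then had 1 higher and 2 lower, and interferon response 0. The difference of Usp18 was 0.14 without that heart. Cytokines and acute phase genes had 2 of 27 higher, Cxcl14 (0.22) and S100a9 (0.12), and 3 lower, Ccl7 (-0.17), Icam1 (-0.14) and, named after its value was seen, Il1r1 (-0.18).

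Over the 30 pathway lists, medians lay between -0.063 and 0.065 on the log2 scale. The cell type lists lay between -0.036 and 0.062, and 6 of their genes had an unadjusted p under 0.05: Prrx1, Fcgr1 of macrophages (0.23) and S100a9 of neutrophils higher, and Col1a1 of fibroblasts, Plin1 of adipocytes (-0.15) and Myl4 of atrial muscle lower. In these lists 7 genes were higher and 1 lower without ZT19 replicate 2. The 14 lists held 2 to 8 measured genes each. By the same measure 4.12% of all genes were higher and 3.19% lower with all hearts, and 4.31% and 2.78% without ZT19 replicate 2.

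**Figure D5:**
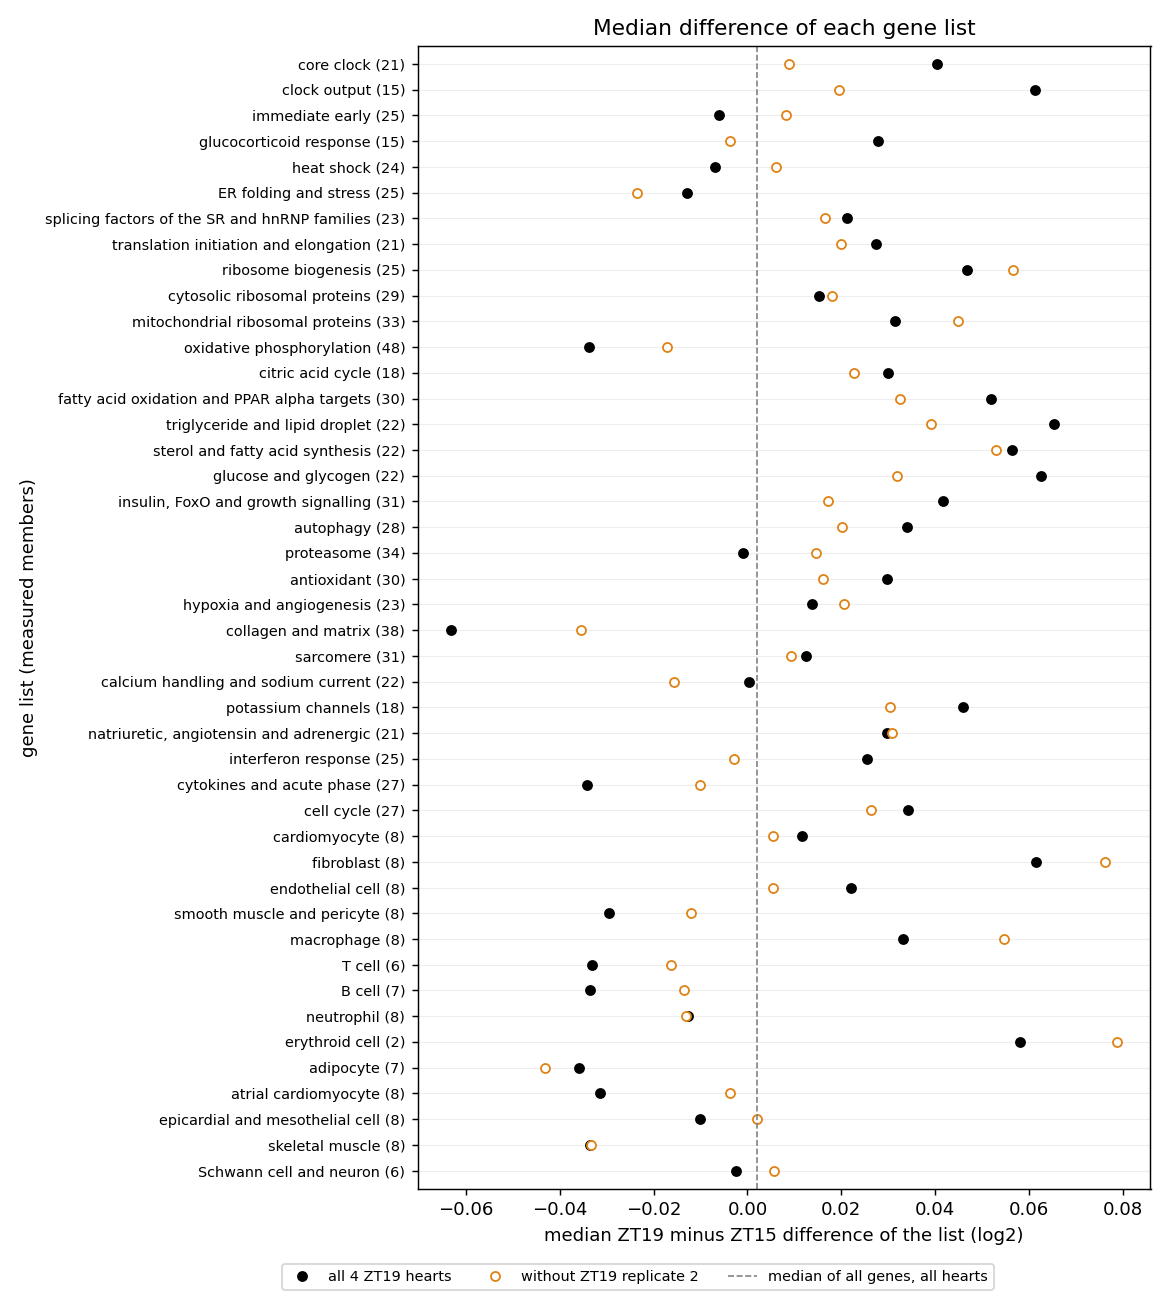
Median ZT19 minus ZT15 difference on the log2 scale (horizontal axis) of each gene list (rows, measured members in brackets), with all 4 ZT19 hearts (black) and without ZT19 replicate 2 (open orange), against the median of all genes (dashed). Medians of pathway lists lie between -0.063 for collagen and matrix and 0.065 for triglyceride and lipid droplet with all hearts.

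Leaving out ZT19 replicate 2 brought other genes to the smallest p-values without any passing. Nckap1l, a protein of actin assembly in blood cells, stood at 0.28, -0.10, 0.077 and 0.20 at ZT19, against -0.19, -0.097, -0.15 and -0.24 at ZT15. Replicate 2 was the ZT19 heart that overlapped the ZT15 hearts, and the difference was 0.28 with it and 0.35 (0.21 to 0.50, adjusted p = 0.375 by limma) without it. Nanos3, a gene of germ cells, was at 0.33 in replicate 2 and at -0.14, 0.044 and -0.18 in the other ZT19 hearts, against 0.16 to 0.30 at ZT15. Its difference was -0.21 with that heart and -0.32 (-0.47 to -0.17, adjusted p = 0.375 by limma) without it. Atp6v1g3, a subunit of the proton pump, differed by 0.19, Snx8, a sorting nexin, by -0.26, and Ccp110, a protein that caps centrioles, by -0.17. Glcci1, Tpgs2, Lgals8, Hes5 and Snord19 were among the smallest p-values in both comparisons, as sharing every heart but ZT19 replicate 2 favours.

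The step of ZT07 minus ZT03 covers the same hours after lights on as ZT19 minus ZT15 does after lights off, and shares no heart with it. The difference between both steps was tested to ask whether any gene moved in a way particular to the dark phase. At an adjusted p of 0.05, 0 genes (0%) were called, with a smallest adjusted p of 0.166, and 1387 genes, 6.25%, had an unadjusted p under 0.05. Glcci1 had a step of 0.19 in the dark phase and of -0.074 in the light phase, a difference of 0.26 (adjusted p = 0.166 by limma). Tm4sf1, a membrane protein of endothelial cells, stood at 0.16, 0.061, 0.060 and 0.17 at ZT19, against -0.20, -0.14, -0.20 and -0.12 at ZT15. Its groups were apart, and its step was 0.28 in the dark phase and -0.27 in the light phase. Rela, the p65 subunit of NF-kappa B, stood at -0.14, -0.15, -0.13 and -0.067 at ZT19, against 0.14, 0.0040, 0.25 and 0.17 at ZT15, and its step was -0.26 in the dark phase and 0.21 in the light phase. For both genes the adjusted p of the difference was 0.166 by limma, short of the threshold.

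Several other genes had steps of opposite sign in the dark and light phases. Like Glcci1, Tm4sf1 and Rela, they were chosen by the smallest p of the difference between the steps, which favours opposite signs. Myocd, the coactivator of muscle genes myocardin, stood at -0.31, -0.21, -0.31 and -0.21 at ZT19, against 0.28, -0.10, -0.018 and -0.0010 at ZT15, so every ZT19 heart was lower. Its step was -0.30 in the dark phase and 0.19 in the light phase. Xirp1 had steps of -0.23 and 0.31, and Inka2, an inhibitor of the kinase PAK4, of -0.26 and 0.32. On the other side, Pm20d1, a secreted enzyme that makes N-acyl amino acids, had a step of 0.24 in the dark phase and of -0.17 in the light phase. Inmt, an indole methyltransferase, had steps of 0.15 and -0.37, and Hmcn1, of the matrix protein hemicentin, of 0.23 and -0.20. The adjusted p of the difference between the steps ran from 0.166 to 0.375 over these 6 genes.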

How the data were processed

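Total RNA from 24 hearts was measured on Affymetrix arrays of a single colour, labelled from 500 ng per the labels' protocols. The deposited values are in logarithms read as log2, and the authors had subtracted from each of 34351 features its median over the arrays (largest absolute median left 5e-07), as the values themselves show. Normalization, summarization, log base and any filter were not stated. With a natural log every size would be 1.44 times larger and every p the same. Because values are centred, no filter on low signal was possible, and signal over background is unknown. Features with exactly 1 symbol in the platform annotation (23521; 1814 had several and 9016 none) were averaged per gene, giving 22180 genes, 2945 of them without a proper symbol and not named. Of these features 23328 matched RefSeq by Entrez ID.

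limma 3.58.1 in R 4.3.3 fitted 6 time-point means over all arrays, with Benjamini-Hochberg adjustment at 0.05. Contrasts were ZT19 minus ZT15, the same without ZT19 replicate 2, and that step minus the step of ZT07 minus ZT03. The fit was tested on simulated data. Named were the 8 smallest p per direction, all measured core clock genes, up to 4 members per list at an unadjusted p under 0.05, and 5 per direction for each other contrast. The 10 largest sizes were added after values were seen. Members and the 44 lists were chosen with earlier results of these data known. Alternatives were single features, quantile normalization, centred arrays, array weights, robust moderation, only the arrays compared, a replicate block, and each heart left out.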

Additional observations from a re-analysis of the deposited data

Results flagged for a closer look

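In each named gene, the heart at either end of the ZT19 group and of the ZT15 group was compared with its nearest neighbour, and 15 of 244 groups held a heart set apart by more than Dixon's 95% critical value for 4 samples. Chance flags about 1 in 20 groups that were not chosen by their values. Many of these genes were chosen by their values, and ZT19 replicate 2 was singled out for its clock genes. The number is therefore a description, and whether it exceeds chance was not tested. Of the 15, 6 were ZT19 replicate 2: Clock at -0.5974, Dbp at 0.6199, Nr1d2 at 0.6719, Ptgds, the prostaglandin D synthase, at 1.5893, Trim63 at 0.3177 and Usp18, an interferon-induced protease, at 0.3048. The other ZT19 hearts set apart were replicate 1 in Insig1 at -0.2888, Psma5 at 0.0952 and Xirp1 at -0.3041, replicate 3 in Timeless at -0.2039, and replicate 4 in Cxcl14 at 0.4652, Ppargc1a at -0.0808 and Prrx1 at 0.1393. In the ZT15 group replicate 1 stood apart in Atg12 at -0.0486 and in Dbp at 0.2859. The differences of Clock, Dbp, Nr1d2, Ptgds, Trim63 and Usp18 are given above with and without ZT19 replicate 2.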

How the results depend on the processing

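No gene passed for ZT19 minus ZT15 under single features, quantile normalization, array medians set to 0, array weights, robust moderation, a replicate block or only the 8 arrays compared. Leaving out 1 heart at a time gave 0 to 1 genes, the 1 being Olfr914 without ZT15 replicate 3. Of genes that differed between ZT19 and ZT15 without ZT19 replicate 2, the fit with a replicate block called 1, Tpgs2 (adjusted p = 0.04996 by limma, against 0.0835 with no block), and no other alternative called any. The replicate numbers are not known to pair hearts: correlations of same-numbered ZT19 and ZT15 hearts over genes ran from -0.0773 to 0.0311. Counts at an unadjusted p under 0.05 stayed within 1.5 times. Leaving out single hearts turned the sign of 10 core clock genes, none near the threshold. The difference of Arntl ran from -0.31 to 0.039, difference of Clock from -0.19 to 0.0088, difference of Cry2 from -0.060 to 0.14, difference of Csnk1e from -0.0084 to 0.12, difference of Dbp from -0.086 to 0.15 and difference of Nr1d2 from -0.024 to 0.23, with ZT19 replicate 2 left out at the end across 0. The difference of Ciart ran from -0.0085 to 0.028, difference of Hlf from -0.096 to 0.0059, difference of Nfil3 from -0.041 to 0.059 and difference of Rorb from -0.080 to 0.065. Precision is set by having 4 hearts at each time.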
